A study of Mus musculus with 6 samples.

Results

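The positions described here are single cytosines in mouse promoters whose methylation differed between a cultured germ cell or pluripotent line and a reference library. They are the positions of the 10 deposited tables whose annotation names a promoter, 99377 distinct positions of 448072 listed in all. The assay was reduced representation bisulfite sequencing, in which a digested genome is sequenced in its CpG-rich fragments. The lines came from mice of the OG2 strain, which carry a fluorescent reporter driven by upstream sequence of Pou5f1. GSC, 1 line, are germline stem cells, the form spermatogonial stem cells take in culture. From GSC came the iPSC, 2 independently derived lines of induced pluripotent stem cells. The gPSC, also 2 independent lines, are pluripotent stem cells of germline origin, and ESC are 1 line of embryonic stem cells. The series asks whether reprogramming with transcription factors leaves an epigenetic memory. No age, sex, passage or time is given for the lines, and each line has 1 library. Both tables of a library, 1 for higher methylation (hyper) and 1 for lower (hypo), name no reference. ESC alone has no tables and is taken as that reference here, so all 5 libraries share it.

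Each table gives, for a position, the difference in methylation in percentage points with its p-value and q-value. Every difference was at least 25 points in size and every q at most 0.01, so a position that was measured and did not pass is not in the tables. Neither read coverage nor methylation levels are given. The depth is therefore unknown, no error can be put on the difference at 1 position, and an absent position may have been equal to the reference or not measured.

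Promoters are the stretches around transcription starts where the transcription machinery assembles. In mammals many lie in CpG islands, CpG-rich stretches that stay unmethylated in most cell types, while most CpGs elsewhere in the genome are methylated. Methylation of a CpG-rich promoter is known to go with silencing, and genes of the germ line are among those normally silenced this way in somatic cells. A CpG reads the same on both strands, and maintenance methylation normally keeps its cytosines on the plus and minus strands in the same state.

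The annotation cells carry GenBank transcript accessions and no gene symbols. Promoter positions were therefore named by RefSeq starts within 1000 bp on GRCm38.p6, a plus-strand start first. Of the 99377 positions, 51056 (51.4%) lay near a plus-strand start, 8387 (8.44%) only near a minus-strand start, and 39934 (40.2%) near no start in the table. The deposited annotation covered the strands unequally. It called 85.5% of the listed positions within 1000 bp of a plus-strand start a promoter, against 37.0% of those near a minus-strand start, and it marked none of the 12276 listed positions on X, 521 on Y or 90 on MT. The genes below are thus mainly autosomal plus-strand genes. They number 5985, of which 3883 held at least 3 promoter positions in 1 or more libraries and were assessed.

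Windows of RefSeq promoter sequence from 250 bases before to 50 bases after the start show where in a promoter the listed cytosines fall. The following were chosen after their values were seen, because the results turn on them. Hnrnpu has listed cytosines on both strands, and Arl8a and Mta1 have them, in the libraries named, on the minus strand of the genome alone. Mthfsl and the germ cell gene Rpl39l have them on both strands in 1 direction. Each is 300 bases on GRCm38.p6, written 5′ to 3′ on the strand of the gene, with CpGs in capitals where at least 1 of the pair of cytosines was listed in the library named.
Hnrnpu, iPSC 1, chr1:178337766-178338065, minus strand: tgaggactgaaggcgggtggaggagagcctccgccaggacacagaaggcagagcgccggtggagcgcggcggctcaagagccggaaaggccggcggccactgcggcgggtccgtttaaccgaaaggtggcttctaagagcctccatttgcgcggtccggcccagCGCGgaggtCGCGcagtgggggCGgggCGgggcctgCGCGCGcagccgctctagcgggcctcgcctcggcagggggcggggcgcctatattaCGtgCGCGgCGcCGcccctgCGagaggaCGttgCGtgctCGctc
Arl8a, GSC, chr1:135146584-135146883, plus strand: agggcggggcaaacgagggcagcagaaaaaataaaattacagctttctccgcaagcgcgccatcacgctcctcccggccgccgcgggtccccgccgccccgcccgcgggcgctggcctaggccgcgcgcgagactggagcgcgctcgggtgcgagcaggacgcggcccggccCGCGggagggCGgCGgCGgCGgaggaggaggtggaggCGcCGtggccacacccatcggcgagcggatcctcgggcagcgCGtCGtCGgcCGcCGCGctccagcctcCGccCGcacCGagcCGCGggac
Mta1, any of the 5 libraries, chr12:113098028-113098327, plus strand: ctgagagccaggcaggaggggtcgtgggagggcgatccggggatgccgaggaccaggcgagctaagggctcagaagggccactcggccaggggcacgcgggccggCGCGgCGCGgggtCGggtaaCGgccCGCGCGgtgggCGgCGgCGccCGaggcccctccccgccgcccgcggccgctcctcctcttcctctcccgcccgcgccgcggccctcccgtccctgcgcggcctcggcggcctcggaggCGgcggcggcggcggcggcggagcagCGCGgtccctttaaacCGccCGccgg
Mthfsl, iPSC 1, chr9:88719538-88719837, minus strand: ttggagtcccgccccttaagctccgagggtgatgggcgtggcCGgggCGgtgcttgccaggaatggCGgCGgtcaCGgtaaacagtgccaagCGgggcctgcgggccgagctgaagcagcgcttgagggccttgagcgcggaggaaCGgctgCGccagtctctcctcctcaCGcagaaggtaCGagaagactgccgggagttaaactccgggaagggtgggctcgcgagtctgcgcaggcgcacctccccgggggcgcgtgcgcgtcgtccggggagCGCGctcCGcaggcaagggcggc
Rpl39l, gPSC 1, chr16:10169978-10170277, plus strand: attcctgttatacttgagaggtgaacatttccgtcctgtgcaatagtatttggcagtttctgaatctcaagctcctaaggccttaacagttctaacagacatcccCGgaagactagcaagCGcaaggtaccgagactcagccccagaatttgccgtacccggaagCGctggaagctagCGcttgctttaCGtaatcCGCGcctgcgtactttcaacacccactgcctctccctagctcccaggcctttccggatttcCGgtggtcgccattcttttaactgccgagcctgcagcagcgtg
The Hnrnpu window holds 41 CpGs, of which 18 were listed, in a cluster upstream of the start and another around it. The Arl8a window holds 51 CpGs with 19 listed, and that of Mta1 50 with 18 listed. Rpl39l has a sparser window, with 8 of 17 CpGs listed.

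Promoter positions were split between the directions, and the other listed positions were mostly hyper. GSC had 30592 hyper and 21254 hypo promoter positions. iPSC 1 had 14571 and 11025, and iPSC 2 had 17447 and 13468. In gPSC 1 there were 19216 hyper and 13477 hypo positions, and in gPSC 2 17434 and 9361. GSC thus had the most promoter positions of the 5 libraries, 51846, against 25596 to 32693 in the pluripotent lines, and they made up 16.8% to 20.3% of what each library listed.

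The hyper share of promoter positions was 59.0% in GSC, against 88.9% of the other positions there. It was 56.9% against 87.9% in iPSC 1, 56.4% against 83.1% in iPSC 2, 58.8% against 87.8% in gPSC 1 and 65.1% against 91.6% in gPSC 2. Every promoter share lay below every share of the other positions. The difference, promoter minus other, averaged -28.6 percentage points (SD 1.96, n = 5 libraries) and was negative in 5 of 5. A two-sided exact sign-flip permutation test over the libraries gave p = 0.0625, the smallest 5 libraries allow, and 0.375 after Benjamini-Hochberg adjustment over 6 tests. The libraries share the reference, so they are not independent in this respect.

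Promoter differences were also smaller in size. Hyper promoter positions had a median difference of 50 points in GSC, against 68.2 at other positions, and of 41.7 to 45.4 points in the pluripotent lines, against 51.0 to 58.5. For hypo promoter positions the median was -46.0 points in GSC, against -49.4 at other positions. In the pluripotent lines it was -45.7 to -40.9 points, against -60 to -43.3. Without positions 1 bp from one of opposite sign the hyper medians lay closer, 60.7 points against 70.1 in GSC. The pluripotent lines then had 46.6 to 53.7 points, against 52.2 to 60.3. The share of promoter positions whose difference reached 50 points was 47.6% in GSC, and 34.1%, 42.1%, 40.3% and 36.2% in iPSC 1, iPSC 2, gPSC 1 and gPSC 2.

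**Figure D1:**
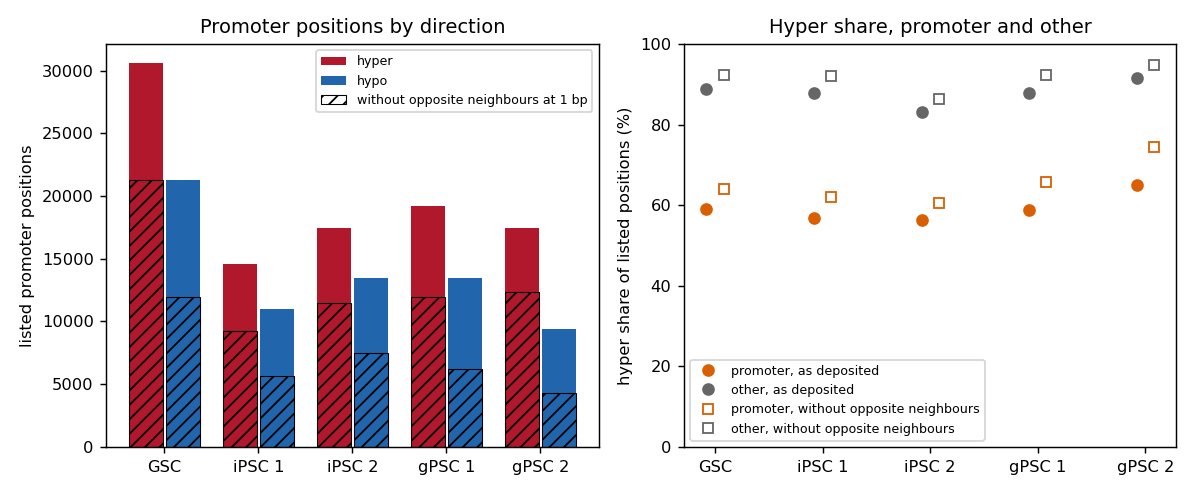
Left, listed promoter positions per library (y axis, number) that were hyper or hypo, with the hatched part left after removal of positions 1 bp from one of opposite sign. Right, hyper share (y axis, %) of promoter and other positions per library, before (filled circles) and after that removal (open squares); all promoter shares, from 56.4% to 74.3%, lie below those of other positions, from 83.1% to 94.9%.

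As deposited, the iPSC and gPSC lines did not separate by these totals. The iPSC lines had 16009 ± 2034 hyper promoter positions and the gPSC lines 18325 ± 1260 (mean and SD, n = 2 lines each), with a two-sided exact permutation p of 0.667. Without positions 1 bp from one of opposite sign, both iPSC lines lay below both gPSC lines in hyper positions. The iPSC lines then had 9221 and 11471 and the gPSC lines 11975 and 12337 (exact permutation p = 0.333). Hypo positions numbered 12247 ± 1727 in iPSC lines and 11419 ± 2910 in gPSC lines (exact permutation p = 1). For the hyper share, both iPSC lines lay below both gPSC lines, with means of 56.7% ± 0.348 and 61.9% ± 4.45 (SD, n = 2 lines each). Its exact permutation p of 0.333 is the smallest that 2 lines against 2 allow. Median hyper differences were 43.3 ± 2.31 points for the iPSC lines and 44.1 ± 1.82 points for the gPSC lines (SD, n = 2 lines each; exact permutation p = 0.667). Median hypo differences were -43.7 ± 2.83 points for the iPSC lines and -41.9 ± 1.44 points for the gPSC lines (SD, n = 2 lines each; exact permutation p = 0.667). After adjustment over the 6 tests these p-values, as deposited, were 0.8 or 1. With 2 lines a kind, no lower p than 0.333 can be reached.

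Direction changed with distance from the start. Among positions near a plus-strand start, the hyper share was lowest from 0 to 250 bp downstream, at 42.9% for GSC, 43.5% for iPSC 1, 41.9% for iPSC 2, 46.9% for gPSC 1 and 47.2% for gPSC 2. It was higher 750 to 1000 bp upstream, at 65.5% for GSC, 58.6% for iPSC 1, 60.7% for iPSC 2, 67.8% for gPSC 1 and 67.1% for gPSC 2. Promoter positions with no RefSeq start within 1000 bp were mostly hyper, 76.2% of them in GSC and 70.7% to 79.7% in the pluripotent lines. From 0 to 250 bp downstream of a start, hypo positions were thus in the majority in every library.

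**Figure D2:**
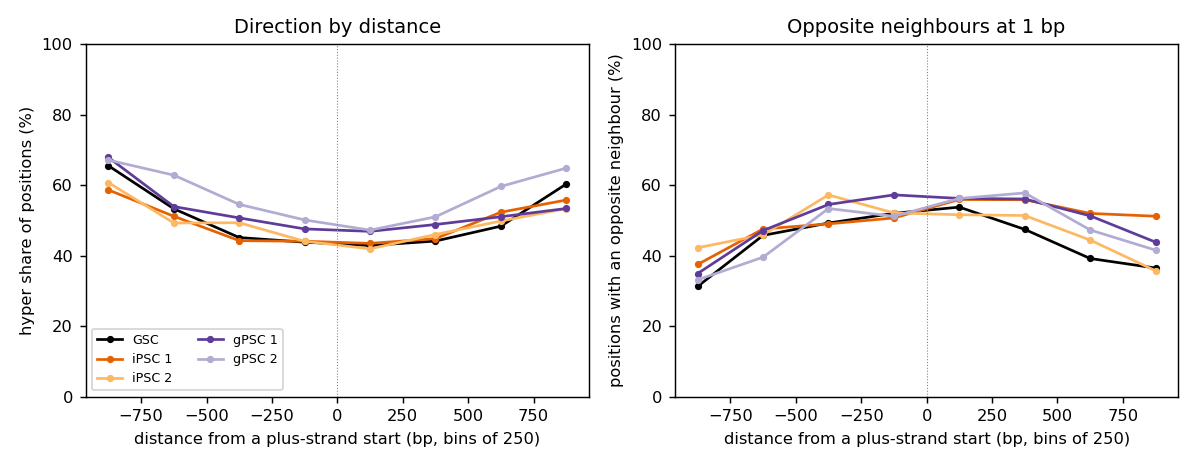
Hyper share of promoter positions (left, %) and share of them 1 bp from a listed position of opposite sign (right, %), against distance from a plus-strand RefSeq start in bins of 250 bp, 1 line per library. The hyper share is lowest at the start, 41.9% to 47.2% from 0 to 250 bp downstream, where 51.6% to 56.2% of positions have an opposite neighbour.

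Much of the mixture of directions lay within single CpGs. Positions 1 bp from a listed position of opposite sign made up 35.9% of promoter positions in GSC, 41.8% for iPSC 1, 38.7% for iPSC 2, 44.4% for gPSC 1 and 38.1% for gPSC 2. Among other listed positions the share was 7.25% to 10.6%. Every table writes its positions with 1 and the same strand sign, so the strand was read from the base at each position in the RefSeq windows. There, 99.8% to 99.9% of promoter positions lay in a CpG, about as many on its C, the plus-strand cytosine of the genome, as on its G, which marks the minus-strand cytosine.

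Where both cytosines of a CpG in these windows were listed, they nearly always moved in opposite directions. This held for 2255 of 2300 such CpGs in GSC (98.0%), 1161 of 1165 in iPSC 1 (99.7%), 1379 of 1388 in iPSC 2 (99.4%), 1616 of 1617 in gPSC 1 (99.9%) and 1132 of 1140 in gPSC 2 (99.3%). The paired differences nearly cancelled. Their sum lay within 5 points of 0 for 88.4% to 93.9% of these CpGs, and the median size of the sum was 0.478 to 0.807 points. Over both strands such a CpG therefore showed almost no difference from the reference, although both its cytosines were listed. Among the few CpGs whose cytosines moved together, 45 of 45 in GSC were hyper. Outside the windows the bases are not known. Over all pairs of promoter positions 1 bp apart, 88.2% were opposite in GSC and 96.7% to 98.2% in the pluripotent lines. Among pairs of other listed positions the share was lower, 48.1% in GSC and 66.4% to 78.2% in the pluripotent lines.

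Within a gene the orientation was uniform. Of genes with at least 3 CpGs of opposite strands, 262 of 281 in GSC (93.2%) had the same strand hyper throughout. The count was 147 of 153 in iPSC 1, 162 of 171 in iPSC 2, 193 of 206 in gPSC 1 and 142 of 146 in gPSC 2. Neither strand was favoured over genes: in GSC the plus strand was hyper in 143 and hypo in 119.

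Hnrnpu, which encodes a nuclear RNA- and DNA-binding protein, is the gene with the most such CpGs, counted over the libraries. Its 18 listed CpGs, shown above, had mean differences at the plus-strand cytosine of -46.7 points for iPSC 1, -34.9 for iPSC 2, -35.7 for gPSC 1 and -36.3 for gPSC 2. At the minus-strand cytosine they were 46.7 points for iPSC 1, 35.4 for iPSC 2, 35.7 for gPSC 1 and 36.5 for gPSC 2, so the strands mirrored each other in each line. In GSC none of these CpGs was listed. Rmi1, a subunit of the complex that dissolves recombination intermediates, had the same orientation, with -34.7 and 35.3 points over 15 CpGs in GSC and -34.5 and 34.6 points over 16 in iPSC 2. Ptp4a2, a protein tyrosine phosphatase, had the reverse, with 36.7 and -36.7 points over 18 CpGs in iPSC 2 and 32.3 and -32.3 points over 17 in gPSC 1. These genes were picked for their number of such CpGs. Since the 5 libraries share the reference, a like orientation in several of them is not independent evidence of a change in each.

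**Figure D3:**
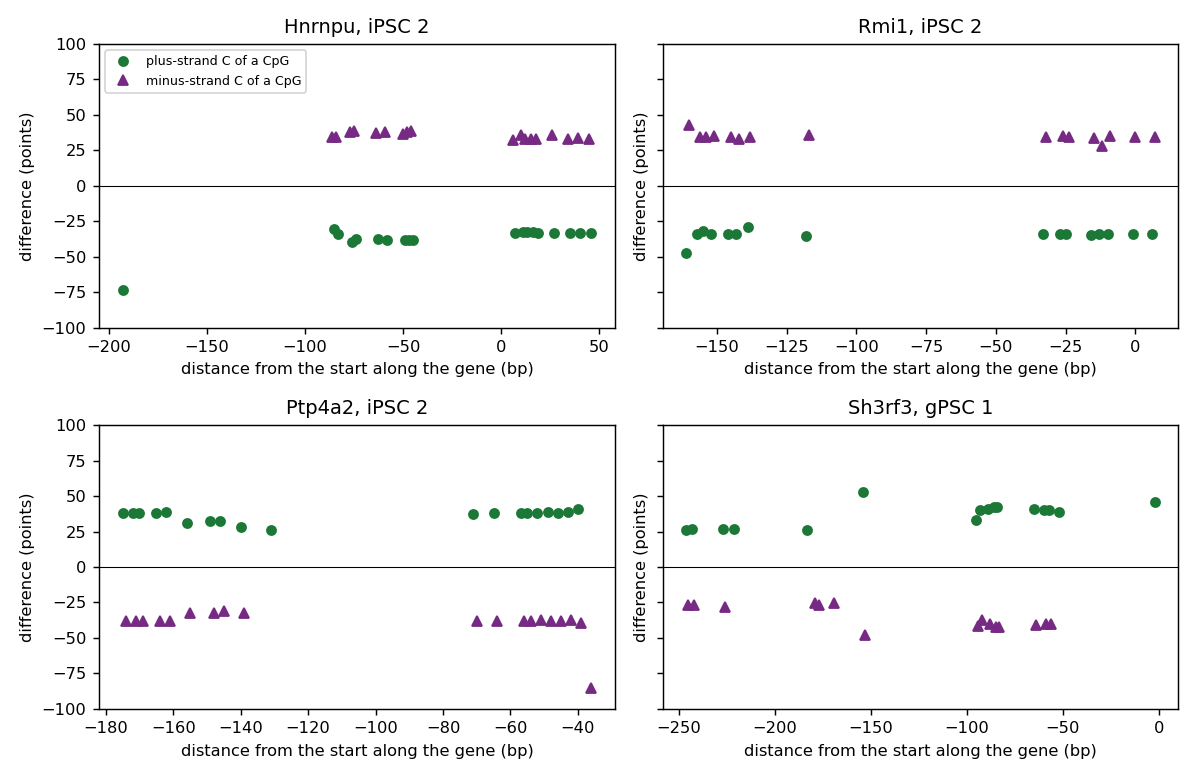
Differences (y axis, percentage points) at plus-strand (circles) and minus-strand (triangles) cytosines of the genome against distance from the start along the gene (x axis, bp), for the 4 genes with the most CpGs of opposite strands, each in the library with the most positions. The strands mirror each other around 0; in Hnrnpu the plus-strand cytosines have -34.9 points and the minus-strand cytosines 35.4 points on average over 18 paired CpGs.

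A gene was called in a library when at least 3 promoter positions had 1 direction and they were at least 80% of its promoter positions, and in iPSC or gPSC when both lines met this. GSC had 493 genes called hyper, 12.7% of the 3883 assessed, and 591 called hypo, 15.2%. Both iPSC lines had 91 hyper genes (2.34%) and 41 hypo genes (1.06%). Both gPSC lines had 126 hyper genes (3.24%) and 30 hypo genes (0.773%). Counts for GSC rest on 1 library and those for iPSC and gPSC on agreement of 2 lines, so they are not on 1 scale. For a single line the hyper calls numbered 239 (6.16%) for iPSC 1, 248 (6.39%) for iPSC 2, 314 (8.09%) for gPSC 1 and 310 (7.98%) for gPSC 2. Hypo calls numbered 205 (5.28%) for iPSC 1, 340 (8.76%) for iPSC 2, 230 (5.92%) for gPSC 1 and 179 (4.61%) for gPSC 2. GSC exceeded each pluripotent line in both directions on this base of 3883 genes, which is the same for every library. Among a library's own genes with at least 3 promoter positions, GSC did not have the highest hyper share. Its 18.6% compared with 14.7% (iPSC 2) to 24.9% (gPSC 2) for the pluripotent lines, where iPSC 1 had 18.8%. The hypo share on that base was still highest for GSC, at 22.4% against 12.3% to 20.2%. Grouped by the accessions of the tables instead, in 14042 groups that also take in positions near no RefSeq start, GSC had 2116 hyper and 772 hypo groups, both iPSC lines 472 and 52, and both gPSC lines 618 and 33. Which direction had more called genes in GSC thus depended on the rule. With a q of at most 0.001 it had 411 hyper and 361 hypo genes, and with 100% of positions in 1 direction 417 and 388.

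Most genes with enough positions were mixed. Of 2644 genes with at least 3 promoter positions in GSC, 59.0% had no call, and in the pluripotent lines 60.8% to 70.9%. Without positions 1 bp from one of opposite sign, 24.9% to 31.5% of the genes that kept at least 3 had none. That base was smaller. In GSC it held 1867 genes, of which 557 had no call, against 1560 as deposited. GSC gained only 51 hyper and 176 hypo calls by the removal, so most of the fall came from genes left with fewer than 3 positions. On those positions 2940 genes were assessed, with 544 hyper (18.5%) and 766 hypo (26.1%) in GSC, 101 (3.44%) and 60 (2.04%) in both iPSC lines and 143 (4.86%) and 48 (1.63%) in both gPSC lines.

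Genes called hyper and hypo had promoters of different CpG content. The median number of CpGs in the 300-base window was 10 for hyper and 27 for hypo genes of GSC, 9 and 25 for those of iPSC, and 11 and 30.5 for those of gPSC. Assessed genes had a median of 23, and all 32851 RefSeq windows 7. The same order held without opposite neighbours, with medians of 9 to 12 for hyper and 27 to 30.5 for hypo genes.

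**Figure D4:**
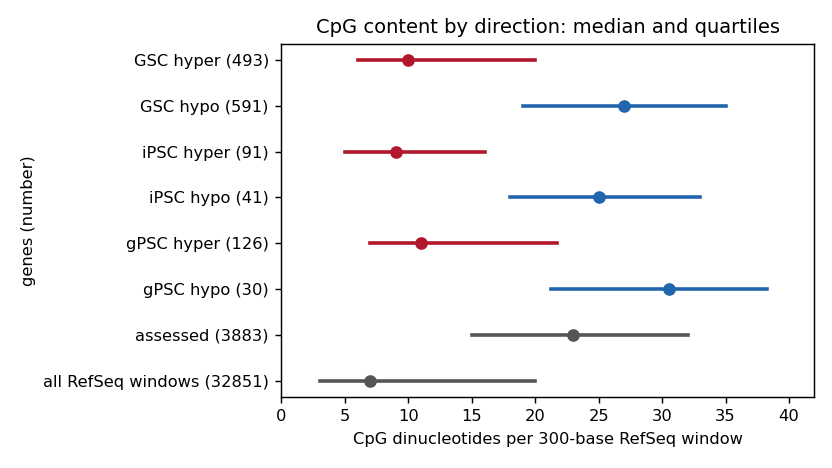
Number of CpG dinucleotides in the 300-base RefSeq promoter window (x axis) for genes called hyper or hypo in GSC, both iPSC lines or both gPSC lines, for all assessed genes and for all RefSeq windows, as median (point) and quartiles (bar), with the number of genes in brackets. Hypo genes have medians of 25 to 30.5 CpGs and hyper genes 9 to 11.

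Called genes often rested on 1 strand. Among genes called hypo with at least 3 positions in the RefSeq window, all of these lay on the same strand in 143 of 192 in GSC (74.5%), 67 of 79 in iPSC 1 (84.8%), 85 of 104 in iPSC 2 (81.7%), 52 of 67 in gPSC 1 (77.6%) and 67 of 74 in gPSC 2 (90.5%). For hyper genes the shares were lower, 48.8% in GSC and 58.0% to 68.1% in the pluripotent lines. Since both listed cytosines of a CpG in the windows nearly always differ in direction, the share that a call needs itself favours genes listed there on 1 strand. Whether the other cytosine of these CpGs was unchanged or unmeasured cannot be told apart in these tables. A part of the positions also lay in CCGG, which holds 11.1% of all CpGs of the windows. It held 29.4% to 47.0% of hypo and 22.7% to 33.0% of hyper positions without an opposite neighbour, and 7.02% to 20.7% of those with one.

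In GSC the gene with the most hyper promoter positions among those ranked was Pou5f1. It encodes the POU factor of pluripotency and had 47 hyper positions and 1 hypo position in GSC with a mean difference of 65.6 points. Over the libraries its positions ran from 35505897 to 35509775 on chromosome 17, so positions near more than 1 start of the gene were pooled. Of those in GSC, 7 lay in the 300-base window of the start at 35506032. The reporter of the OG2 strain carries copies of Pou5f1 upstream sequence, whose reads cannot be told apart from those of the gene here. It had 9 hyper and 4 hypo positions with 26.0 points in iPSC 1, 14 and 2 with 29.5 in iPSC 2, 11 and 2 with 36.1 in gPSC 1, and 15 and 5 with 23.7 in gPSC 2, so its mean was positive in all 5 libraries and highest in GSC. It met the call in iPSC 2 and gPSC 1. Without opposite neighbours it was called in both gPSC lines, with 9 hyper and 0 hypo positions and 49.3 points in gPSC 1 and 11 and 1 with 38.0 points in gPSC 2. It was then still called in iPSC 2, with 13 and 1 and 33.4 points. In iPSC 1 it missed the call, with 7 and 2 and 37.1 points.

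The claudins Cldn4 and Cldn3, membrane proteins of tight junctions encoded near each other on chromosome 5, were hyper in GSC alone. Cldn4 had 21 hyper and 0 hypo positions with 56.2 points, and Cldn3 had 20 and 3 with 42.5 points. In the pluripotent lines Cldn4 had at most 9 positions and Cldn3 at most 3, and neither was called. Speg, a kinase of striated muscle, had 24 hyper positions with 55.4 points in GSC. Npr2, the receptor of C-type natriuretic peptide, had 37 hyper and 9 hypo with 31.3 points, and kept a positive mean of 16.9 to 18.1 points in the 4 pluripotent lines without a call. Alpk3, a kinase of heart muscle, had 21 hyper positions with 64.2 points in GSC and was called hypo in iPSC 2, with 2 hyper and 8 hypo positions and -34.6 points.

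Among the 8 hypo genes of GSC with the most positions, mean differences lay between -77.6 points, at the zinc finger factor Hivep1, and -41.9 points, at Cds1, an enzyme of phospholipid synthesis. Rgmb, a co-receptor of bone morphogenetic proteins, had 32 hypo positions with -48.5 points in GSC. It was also called hypo in iPSC 2, with 6 positions and -38.9 points, and gPSC 1, with 3 and -41.4 points. Gabpa, a subunit of an ETS family transcription factor, had 27 hypo positions with -48.8 points in GSC. It had a mixture in iPSC 1, with 10 hyper and 7 hypo positions and 10.9 points, and in gPSC 2, with 8 and 6 and 8.55 points. In its window all 17 listed cytosines of GSC lay on the minus strand. Both strands were listed in iPSC 1, with 10 plus-strand and 7 minus-strand cytosines, and in gPSC 2, with 8 and 6. Rdx, which links actin to the cell membrane, had 23 hypo positions with -73.5 points in GSC, 19 with -77.5 points in iPSC 2 and 6 with -78.3 points in gPSC 1, and was not listed in the other lines. Dhx15, a helicase of splicing, had 20 hypo positions and 1 hyper with -63.1 points in GSC and was called in no other library.

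Arl8a, a small GTPase that positions lysosomes, was among the top hypo genes of both GSC and iPSC. It had 20 hypo positions with -48.2 points in GSC, -48.1 points in iPSC 1, -48.5 points in iPSC 2 and -47.3 points in gPSC 2. In gPSC 1 it had 10 hyper positions beside the same number of hypo ones, 20, and a mean of -6.43 points. The 19 CpG positions of its window, shown above, all lay on the minus strand of the genome in the 4 libraries where it was called. In gPSC 1 10 plus-strand cytosines were listed as well.

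**Figure D5:**
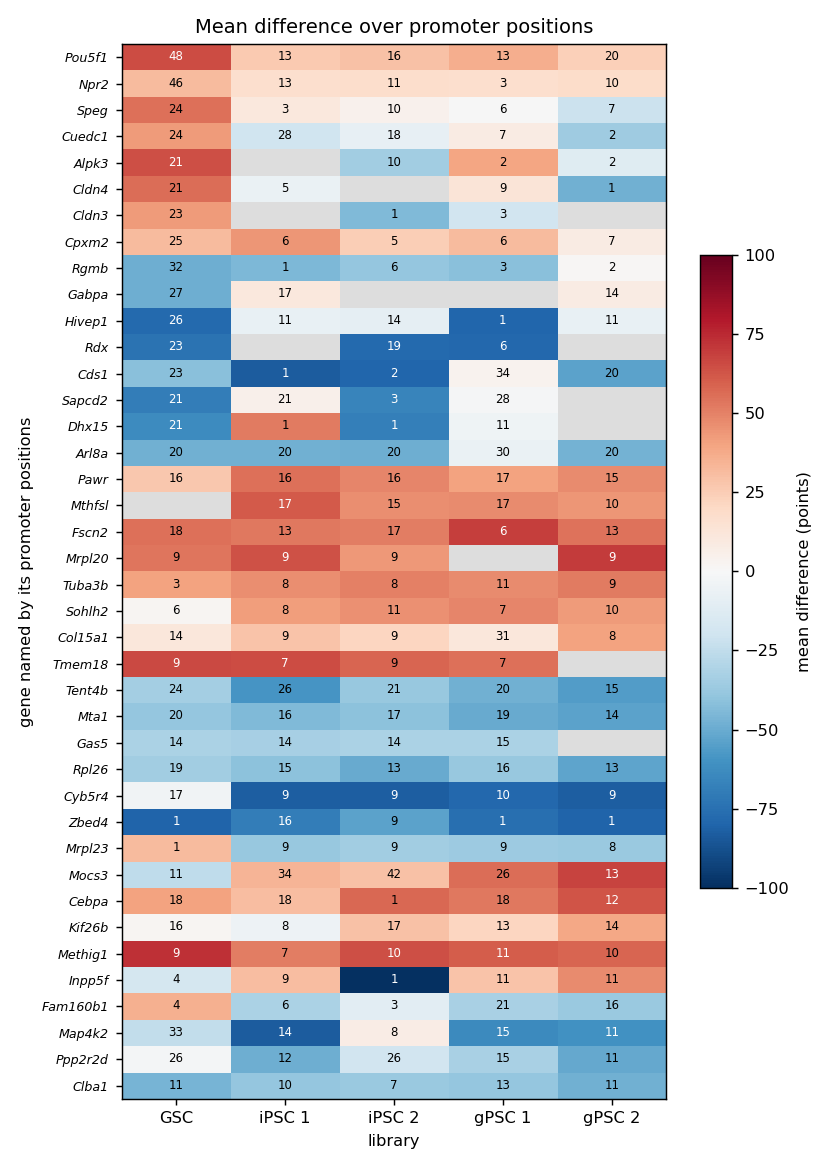
Mean difference over promoter positions (colour, percentage points, red hyper and blue hypo) of the genes with the most positions in GSC, iPSC or gPSC, by library (x axis), with the number of listed positions in each cell; grey cells have none. Pawr, Fscn2 and Methig1 are hyper and Mta1, Rpl26 and Clba1 hypo in all 5 libraries; most of the top genes of GSC have few or mixed positions in the pluripotent lines.

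Of the genes called hyper, Pawr, Mthfsl and Tuba3b were among the 8 with the most positions in both iPSC and gPSC, which share the reference. Mthfsl, at chromosome 9, positions 88719402 to 88720613, had 17 hyper positions with 61.0 points in iPSC 1, 15 with 46.5 in iPSC 2, 17 with 47.1 in gPSC 1 and 10 with 43.9 in gPSC 2. It had no promoter position in GSC, and none of the listed ones was hypo. Group means were 53.8 ± 10.3 points in iPSC and 45.5 ± 2.24 points in gPSC (SD, n = 2 lines each). In its window both strands were listed in every line, 3 plus-strand and 10 minus-strand cytosines in iPSC 1.

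Pawr, a pro-apoptotic partner of WT1, had 16 hyper positions in each iPSC line, with 54.9 points in iPSC 1 and 49.0 in iPSC 2. It had 16 hyper and 1 hypo with 40.5 points in gPSC 1 and 15 hyper with 47.3 in gPSC 2, and 15 and 1 with 26.6 points in GSC, the lowest of the 5. Sohlh2, a bHLH transcription factor of early germ cells, had 8 hyper positions with 41.6 points in iPSC 1, 11 with 46.1 in iPSC 2, 7 with 48.6 in gPSC 1 and 10 with 42.7 in gPSC 2, and none of the 4 had a hypo position. In GSC it had 3 hyper and 3 hypo positions. Cebpa, a transcription factor of fat, liver and myeloid cells, had 18 hyper positions with 52.8 points in gPSC 1 and 12 with 63.1 in gPSC 2. It was also called in iPSC 1, with 16 hyper and 2 hypo positions and 30.9 points, and in GSC, with 16 and 2 and 40.6 points, and had 1 listed position in iPSC 2.

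Among hypo genes of the pluripotent lines, Tent4b, a noncanonical poly(A) polymerase, had 26 hypo positions with -58.8 points in iPSC 1 and 18, beside 3 hyper, with -37.8 in iPSC 2. It had 19, beside 1 hyper, with -48.1 points in gPSC 1 and 15 with -56.0 in gPSC 2. GSC had 19 hypo and 5 hyper positions there with -34.0 points, under the share that a call needs. Without opposite neighbours it had 17 hypo and 3 hyper positions in GSC with -40.6 points and was called hypo in all 5 libraries. Cyb5r4, a cytochrome b5 reductase, had 9 hypo positions with -82.3 points in iPSC 1, iPSC 2 and gPSC 2 alike, and 10 with -78.4 in gPSC 1, all those in its window on the plus strand. In GSC both strands were listed, with 8 hyper and 9 hypo positions and -3.53 points. The libraries share the reference, and no methylation levels are given. Equal means in several lines are therefore not independent evidence, and what they rest on was not tested. Gas5, a host gene of small nucleolar RNAs, had 14 hypo positions with -32.0 points in GSC, 14 with -33.2 in iPSC 1, 14 with -31.9 in iPSC 2 and 15 with -31.3 in gPSC 1, and was not listed in gPSC 2.

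No gene was called in 1 direction in both iPSC lines and in the other in both gPSC lines, as deposited or without opposite neighbours. Mocs3, an enzyme of molybdenum cofactor synthesis, was called hyper in both gPSC lines, with 56.0 and 67.4 points. In iPSC it was called in line 1 with 33.7 points and missed the call in line 2, at 29 hyper and 13 hypo positions and 29.6 points. Without opposite neighbours it was called hyper in both iPSC lines as well, with 22 hyper and 0 hypo positions and 52.5 points in line 1 and 21 and 5 with 47.3 points in line 2, against 60.7 and 67.4 points in the gPSC lines. The difference between iPSC and gPSC was tested for no gene.

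Genes with the same call in all 5 libraries numbered 30 hyper (0.773% of those assessed) and 7 hypo (0.18%). Without opposite neighbours they numbered 35 (1.19%) and 12 (0.408%). Because the libraries share the reference, these are a description. Methig1 had 7 to 11 hyper positions and no hypo one in each, with 73.1 points in GSC, 51.4 for iPSC 1, 64.3 for iPSC 2, 60.3 for gPSC 1 and 58.2 for gPSC 2. Fscn2, an actin-bundling protein of photoreceptors, had 6 to 18, with 51.5 to 69.1 points, and Popdc2, a cAMP-binding membrane protein of heart, 6 to 11, with 45.0 to 71.4 points. Of the hypo ones, Mta1, a subunit of the NuRD chromatin remodelling complex, had -39.0 points in GSC, -44.2 for iPSC 1, -40.8 for iPSC 2, -50.3 for gPSC 1 and -53.7 for gPSC 2, over 14 to 19 hypo and at most 2 hyper positions. Every listed cytosine of its window, 13 to 18 per library, lay on the minus strand. Rpl26, of the large ribosomal subunit, had 13 to 16 hypo positions, with -52.6 to -34.7 points, and the monoamine transporter Slc18a2 had 5 to 9, with -75.9 to -57.1 points. Sfmbt2, a Polycomb gene imprinted in placenta, had 4 or 5, with -80.4 to -63.2 points.

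Calls in GSC were opposite to those of at least 2 pluripotent lines for 11 genes (0.283%), and for 13 (0.442%) without opposite neighbours. Sec24c, a coat protein of vesicles leaving the endoplasmic reticulum, had 5 hypo positions with -83.4 points in GSC, against 13 hyper with 46.7 points in iPSC 2, 16 with 54.3 in gPSC 1 and 1 with 84.6 in gPSC 2. Plekho1 had 10 hypo positions with -66.6 points in GSC, against 48.1 points in iPSC 2 and 31.9 in gPSC 1. In its window the 8 hypo cytosines of GSC lay on the minus strand and the 10 listed in each of those lines on the plus strand. Col4a2, a basement membrane collagen, went the other way, with 5 hyper and 1 hypo positions and 27.5 points in GSC, against 5 hypo with -52.4 points in iPSC 2 and 13 hypo with -67.4 points in gPSC 1.

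Germline genes formed the gene list with the most hyper calls in the pluripotent lines. Of 52 on the list, 45 had a start in the RefSeq table, 19 of them on the plus strand, and 12 were assessed. Both iPSC lines were hyper at 4, against 2.34% of all assessed genes, both gPSC lines at 6, against 3.24%, and GSC at 2, against 12.7%. None was hypo in any of these groups, where hypo calls covered 15.2% (GSC), 1.06% (iPSC) and 0.773% (gPSC) of all assessed genes. Without opposite neighbours the hyper counts were 5 for iPSC, 7 for gPSC and 2 for GSC, again of 12. Of all genes assessed on those positions, 3.44%, 4.86% and 18.5% were hyper, so the GSC count lay near its share. The median of the members' mean differences was 42.1 points in iPSC 1, 42.1 for iPSC 2, 49.4 for gPSC 1, 35.3 for gPSC 2 and 22.1 for GSC, where that of all assessed genes lay between -5.94 and 0.688 points. A gene enters the tables only through positions that differ, so these counts describe listed genes.

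Sycp3, a protein of the meiotic chromosome axis, at chromosome 10, positions 88459700 to 88459990, had 4 hyper positions with 42.1 points in iPSC 1, 5 with 44.8 in iPSC 2, 15 with 59.6 in gPSC 1 and 8 with 35.0 in gPSC 2, and 1 in GSC. Its partner Sycp2 had 3 with 45.1 points in iPSC 1, 9 with 38.0 in gPSC 1 and 5 with 29.9 in gPSC 2, but 2 hyper and 1 hypo in iPSC 2 and none in GSC. Hormad1, another axis protein, had 14 hyper and 5 hypo positions in iPSC 1, 11 and 0 in iPSC 2, 20 and 0 in gPSC 1 and 12 and 4 in gPSC 2. It missed the call in 2 lines as deposited. Without opposite neighbours it had 9, 11, 20 and 8 hyper positions there and no hypo one. Stag3, a subunit of meiotic cohesin, was called in gPSC 2 alone, with 3 hyper positions, and had 1 or 2 hyper positions and no hypo one in each of the other libraries.

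Genes of the germ cell's own protein variants followed. Rpl39l, a ribosomal protein of testis shown above, had 5 hyper positions with 38.4 points in iPSC 1, 9 with 53.7 in iPSC 2, 9 with 51.2 in gPSC 1 and 12 with 45.7 in gPSC 2. In GSC it had 6 hyper and 6 hypo positions, with 4.02 points, 6 on either strand. Slc25a31, the ADP/ATP carrier of meiotic cells, had 7 with 53.9 points in iPSC 1, 6 with 77.9 in iPSC 2, 6 with 54.7 in gPSC 1 and 1 with 41.7 in gPSC 2. Tuba3b, a testis alpha-tubulin, was hyper in all 5 libraries, with 3 positions and 40.3 points in GSC and 8 to 11 with 46.4 to 52.1 points in the lines; it has a near-identical copy, Tuba3a, with which it can share reads. Of the genes of transposon control, Tex19.1 was hyper in GSC, with 4 positions and 55.7 points, and in gPSC, with 7 and 42.8 points in line 1 and 3 and 49.3 points in line 2, and had no position in iPSC. Tdrd9, a helicase of the piRNA pathway, was called in gPSC, with 56.2 and 64.7 points, while iPSC 2 had 3 hyper and 1 hypo positions and iPSC 1 none. The Tudor domain genes Tdrd1 and Tdrd5 of the same pathway were called in no library. Tdrd1 had 4 hyper and 2 hypo positions with 28.4 points in iPSC 2 and 2 hyper with 66.7 points in gPSC 1, and none elsewhere. Tdrd5 was mixed, with 3 hyper and 4 hypo positions and -8.93 points in GSC, and had 1 to 3 positions in each pluripotent line.

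Of 8 assessed genes on the spermatogonial stem cell list, which has 30, GSC was hypo at 3, against 15.2% of all assessed genes. Foxo1, a forkhead factor that maintains the stem cells, had 9 hypo positions with -60.0 points and Itgb1, the beta-1 integrin, 7 with -85.0 points, and neither had more than 1 position in any pluripotent line. Eomes had 6 hypo and 1 hyper with -23.9 points. T, the Brachyury factor, was hyper in GSC, with 5 positions and 57.3 points, and in both iPSC lines, with 31.7 and 44.7 points, and was not called in gPSC. GSC was hyper at no other gene of the list, a share near the 12.7% of all assessed genes. Both iPSC lines were hyper at 2 genes of the list, against 2.34%, and both gPSC lines at 1, against 3.24%. In GSC the 5 listed positions of Eomes in its window lay on the plus strand.

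Of the methylation machinery, 10 of 30 genes were assessed. GSC was hypo at 4, against 15.2% of all assessed genes, and hyper at 1, a share near the 12.7% of all genes. Neither both iPSC nor both gPSC lines had a call, where such calls covered 0.773% to 3.24% of all assessed genes. On its own, gPSC 1 was hypo at 2 of these genes, against 5.92% of all, and gPSC 2 hyper at 1, against 7.98%. Neither iPSC line had a call. Uhrf1, which recruits the maintenance methyltransferase to CpGs methylated on 1 strand, had 5 hypo positions with -66.0 points in GSC, and its relative Uhrf2 had 9 with -76.5 points. All of these in the windows, 5 and 9, lay on the minus strand. Suz12, of Polycomb repressive complex 2, had 14 hypo positions with -48.5 points in GSC, and the histone chaperone Daxx 3 with -40.6 points. Daxx was also called hypo in gPSC 1, with 5 hypo and 1 hyper positions and -32.7 points. Dnmt3l, the cofactor of de novo methyltransferases, was the hyper one, with 4 positions and 67.0 points. It had no position in iPSC 2, 2 in iPSC 1 and gPSC 1 and 3 with 39.3 points in gPSC 2.

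Among 22 assessed ribosomal protein genes of 71, GSC was hypo at 6 and hyper at 1, against 15.2% and 12.7% of all assessed genes. Rpl26 alone was hypo in both iPSC lines, against 1.06% of all, and in both gPSC lines, against 0.773%. On their own, iPSC 1 was hypo at 1, and iPSC 2, gPSC 1 and gPSC 2 at 3 each. Over all assessed genes those lines were hypo at 5.28%, 8.76%, 5.92% and 4.61%. Among 7 assessed pluripotency factors of 30, GSC was hyper at Pou5f1 alone, a share near the 12.7% of all assessed genes. GSC was hypo at Tfcp2l1 alone, with 4 hypo and 1 hyper positions and -18.9 points, a share near 15.2%. Neither both iPSC nor both gPSC lines were called at any as deposited. Without opposite neighbours both gPSC lines were hyper at Pou5f1, against 4.86% of all genes assessed on those positions. So was iPSC 2, while iPSC 1 missed the call with 7 hyper and 2 hypo positions. Of 16 assessed lineage regulators of 74, Foxc1, a forkhead factor of mesenchyme, was hypo in both gPSC lines, with -28.5 and -57.3 points, and mixed in GSC. It was also mixed in iPSC 2, with 9 hyper and 12 hypo positions, and not listed in iPSC 1. Without opposite neighbours it was called hypo in iPSC 2 as well, with 3 positions and -55.5 points. Of all assessed genes 0.773% were hypo in both gPSC lines. Among 7 assessed Hox genes of 39, Hoxd12 alone was hypo in GSC, with 3 positions and -48.5 points. That share is near the 15.2% of all assessed genes.

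Of 4 assessed maternally methylated imprinted genes, from 21, Inpp5f was hyper in both gPSC lines, with 10 hyper and 1 hypo positions and 28.3 points in gPSC 1 and 11 and 47.3 points in gPSC 2. It was also hyper in iPSC 1, with 9 positions and 31.0 points, and had 1 hypo position in iPSC 2. Of all assessed genes 3.24% were hyper in both gPSC lines. Magel2, a gene of the Prader-Willi region, had 4 hypo positions with -45.2 points in GSC, against 4 hyper with 55.4 points in iPSC 2. The other lines did not share the direction of iPSC 2. Magel2 had 1 hypo position in iPSC 1, with -91.1 points, and 1 in gPSC 1, with -81.1 points. In gPSC 2 it had 1 hyper and 1 hypo position. Of all assessed genes 15.2% were hypo in GSC and 6.39% hyper in iPSC 2. None of the 4 assessed paternally methylated loci and of the 3 assessed fibroblast markers was called in GSC, both iPSC or both gPSC lines. Of the testis somatic markers 1 was assessed, Insl3, a hormone of Leydig cells, which was hyper in GSC with 8 positions and 53.1 points. Hyper calls in GSC covered 12.7% of all assessed genes.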

How the data were processed

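Per the labels' protocols, DNA was purified on columns and a sequencing company made the libraries. Tools named in the submitters' processing notes are methylKit, GATK, Bowtie2 and Bismark, and the genome is given as mm10 or GRCm38; no version, role or order is stated. The enzyme, coverage minimum and strand handling were not given in the sources used here. For each position the authors deposited a p-value and a q-value. The methylation difference in percentage points against an unnamed reference was also deposited by the authors.

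Positions whose Feature column names a promoter were kept. GeneID cells hold 65899 GenBank accessions, of which 186 matched a RefSeq synonym, so genes were named by RefSeq starts; the 3116 promoter positions of chromosome 18 have none here. Bases came from RefSeq windows of 300 bases, GRCm38.p6. A gene's value is the mean of the authors' differences over its promoter positions, with the mean and SD of 2 lines for iPSC or gPSC. Positions near any start of the same gene symbol were pooled. Wilson 95% intervals of the hyper shares of promoter positions cover counting error only and were at most 1.56 points wide. Lines were compared with exact permutation tests in SciPy 1.17.1, with NumPy 2.4.6, pandas 2.3.3 and Python 3.11.15; figures were drawn with matplotlib 3.10.9.

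Named genes were the 8 called genes with the most positions for each of GSC, iPSC and gPSC and each direction, 6 called hyper and 6 hypo in all 5 libraries, 6 with opposite calls in GSC, and up to 5 called members of each of 11 lists. Predicted genes, Rik clones and small RNA genes were left out of the ranking. The members and lists were chosen with earlier results of these data known. The text gives a selection of these genes, and Hnrnpu, Rmi1, Ptp4a2, Hormad1, Stag3, Tex19.1, Tdrd1, Tdrd5 and Tdrd9 were added after their values were seen. Replicates of iPSC and gPSC are independent lines, and the numbers of the lines pair nothing in the labels.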

Additional observations from a re-analysis of the deposited data

Results flagged for a closer look

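The tables list 12276 distinct positions on X, and no promoter, exon or intron annotation is given for any of them, so none entered the comparisons above. They were mostly hyper, as were the other positions without a promoter annotation. Of the positions on X, 87.3% of 7915 were hyper in GSC, 86.5% of 4484 in iPSC 1, 86.0% of 5552 in iPSC 2, 89.6% of 6282 in gPSC 1 and 91.1% of 5050 in gPSC 2. What these values rest on was not tested.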

How the results depend on the processing

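The hyper share of promoter minus other positions stayed negative under every alternative run, with -29.1 to -28.0 points when 1 library was left out (GSC included, an alternative chosen after seeing the data, as were those on gene naming below). Of 134 alternative values, 88 were classed as unchanged, 37 as moved and 9 as reversed. For the differences between iPSC and gPSC, the unchanged class included values of the same direction but another size. The hypo positions, iPSC minus gPSC, were 827.5 as reported. They stayed in that class at 372 with a q of at most 0.001 and at 2049 without iPSC 1. The median hypo difference, iPSC minus gPSC, became 1.70 points without opposite neighbours at 1 bp and 2.01 points without those within 50 bp. The median hyper difference became 0.335 points with differences of at least 50 points and 0.103 points with positions annotated to a promoter alone. With each line left out in turn, the hyper positions, iPSC minus gPSC, ranged from -3754 to -878, the hypo positions from -1231 to 2886 (-394 without iPSC 2 and -1231 without gPSC 2), the hyper share from -8.38 to -2.10 points, the median hyper difference from -2.42 to 0.851 points (0.851 without iPSC 1 and 0.504 without gPSC 1) and the median hypo difference from -3.80 to 0.196 points (0.196 without iPSC 2). None of these directions had passed a test.

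Pairing lines of the same number, with a replicate block, left the values as they were, -2316 hyper positions, 827.5 hypo positions, -5.24 points, -0.783 points and -1.80 points. The paired exact sign-flip p was 0.5 for the hyper share, the smallest 2 pairs allow, and 1 for the others. The labels do not say that the numbers pair lines.

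Gene counts depended on the call rule. With positions annotated to a promoter alone they were 139 hyper and 213 hypo in GSC, 19 and 14 in iPSC and 32 and 10 in gPSC. With 1 position enough for a call they were 1354 and 1454 in GSC, 421 and 485 in iPSC and 533 and 276 in gPSC. With 5 needed, 256 hyper genes remained in GSC, 31 and 21 genes in iPSC and 49 and 19 in gPSC. Differences of at least 50 points left 26 hyper genes in iPSC and 44 in gPSC. A q of at most 0.001 left 361 hypo genes in GSC, 24 in iPSC and 17 in gPSC, and 100% of positions in 1 direction left 388, 25 and 14. GSC then had 411 and 417 hyper genes, so that hyper genes outnumbered hypo genes there, unlike as reported. Without opposite neighbours at 1 bp gPSC had 48 hypo genes. A line on its own had 239 to 248 hyper and 205 to 340 hypo genes in iPSC, and 310 to 314 and 179 to 230 in gPSC. Grouping positions by shared accessions in place of RefSeq starts, which keeps positions with no start, gave 2116 hyper groups in GSC, 472 in iPSC and 618 in gPSC. Naming by the nearest start of either strand, or by plus-strand starts alone, moved no count by more than 1.5 times. Beyond these, the depth is unknown and an unlisted position can be unmeasured, which limits every count here.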
